A study of Mus musculus with 2 samples.

Results

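The 9 genes described here encode enzymes that store and break down glycogen, and the subunits that bring protein phosphatase 1 to it: Ppp1r3c, Ppp1r3b, Ppp1r3d, Pygl, Pygb, Gyg, Gys1, Gbe1 and Ugp2. They were taken by gene symbol from the platform's annotation of the deposited table, with results of the injured against uninjured comparison already known, so their differences are a description and carry no test. They are 9 of 30698 genes named in the table, and 9 of 9 had 1 row each and passed the low-signal filter that 19512 genes passed. The filter kept a gene when the brighter of its 2 values reached 5.44, the median over both arrays.

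The samples were corneal epithelium of C57BL/6 mice, an inbred strain, of both sexes and 8 weeks old; the labels name no transgene or deletion. In the injured eyes the epithelium was taken off to its full depth up to the border with the limbus, using a 0.5 mm rust ring remover, under ketamine and xylazine. About 48 hours later 10% of the wound was still open, and the whole epithelium was collected from those eyes and from the fellow eyes, which were not wounded. There was 1 injured and 1 uninjured array; the labels do not say how many mice contributed to either, and an unwounded fellow eye belongs to an animal that had been wounded and anaesthetised.

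Glycogen is the branched polymer in which cells keep glucose at hand, and the corneal epithelium is known for storing it and for drawing on it when cells migrate over a wound. Ugp2 makes the UDP-glucose that feeds the chain, Gyg (glycogenin) primes a new particle, Gys1 lengthens the chain and Gbe1 adds the branches. Glycogen phosphorylase, which has a liver form (Pygl), a brain form (Pygb) and a muscle form (Pygm), releases glucose 1-phosphate from the ends. Protein phosphatase 1, bound to glycogen through Ppp1r3 subunits, removes phosphate from both sets of enzymes, which switches synthase on and phosphorylase off.

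In the injured epithelium 3 of the 9 genes were lower by more than 8-fold and the other 6 were less than 1.5-fold apart. The lower genes were the targeting subunit Ppp1r3c, the phosphorylase Pygl and the primer Gyg, 1 from each of 3 steps. In such bulk samples fewer cells of a type and less RNA per cell cannot be told apart. Of all genes measured, 3.92% were at least 2-fold lower and 4.14% at least 2-fold higher, while 0.261% were at least 8-fold lower. The rule chose the members on this contrast, so nothing is read from setting 3 of 9 against these shares. The median difference of the 9 genes, injured minus uninjured on the log2 scale, was 0.00, and that of all measured genes was 0.06. The median of the 9 genes is the difference of Pygb, whose deposited values are exactly equal for a reason the labels do not give.

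The 3 lower genes were past 2-fold in 1 contrast, which cannot show whether they vary together. Their promoters are printed beside those of Pygb, the phosphorylase with equal values on both arrays, and of Gys1, the synthase. Each is the window from 250 bases before to 50 bases after the start site, 5′ to 3′, from RefSeq on GRCm38.p6. They lie at chr19:36736555-36736854 (minus strand), chr12:70227634-70227933 (minus), chr3:20155067-20155366 (minus), chr2:150786546-150786845 (plus) and chr7:45434589-45434888 (plus). Capitals mark ACGTG or GCGTG on either strand, the core of the hypoxia response element, which was searched because several glycogen genes are known targets of hypoxia-inducible factors.
Ppp1r3c: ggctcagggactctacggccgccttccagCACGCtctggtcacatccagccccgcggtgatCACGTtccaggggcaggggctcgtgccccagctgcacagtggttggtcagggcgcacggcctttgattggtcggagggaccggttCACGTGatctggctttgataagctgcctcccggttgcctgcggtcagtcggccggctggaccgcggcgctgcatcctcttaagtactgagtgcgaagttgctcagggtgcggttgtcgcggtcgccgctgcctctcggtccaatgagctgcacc
Pygl: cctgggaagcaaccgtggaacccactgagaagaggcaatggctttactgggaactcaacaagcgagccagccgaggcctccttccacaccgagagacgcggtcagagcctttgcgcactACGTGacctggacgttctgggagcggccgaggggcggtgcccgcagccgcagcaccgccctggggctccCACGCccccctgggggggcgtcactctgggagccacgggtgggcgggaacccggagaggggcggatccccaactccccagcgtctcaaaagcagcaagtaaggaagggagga
Gyg: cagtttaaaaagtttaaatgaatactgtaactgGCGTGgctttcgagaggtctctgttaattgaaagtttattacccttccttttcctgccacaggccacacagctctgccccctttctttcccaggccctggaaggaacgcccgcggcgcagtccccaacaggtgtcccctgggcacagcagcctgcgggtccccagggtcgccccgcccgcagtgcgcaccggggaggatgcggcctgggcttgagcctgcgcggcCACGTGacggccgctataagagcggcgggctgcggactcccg
Pygb: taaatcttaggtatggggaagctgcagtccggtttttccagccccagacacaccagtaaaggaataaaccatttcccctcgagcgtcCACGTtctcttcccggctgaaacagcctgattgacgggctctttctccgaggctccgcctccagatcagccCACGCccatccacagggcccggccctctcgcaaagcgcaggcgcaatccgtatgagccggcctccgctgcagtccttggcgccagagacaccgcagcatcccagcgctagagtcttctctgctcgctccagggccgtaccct
Gys1: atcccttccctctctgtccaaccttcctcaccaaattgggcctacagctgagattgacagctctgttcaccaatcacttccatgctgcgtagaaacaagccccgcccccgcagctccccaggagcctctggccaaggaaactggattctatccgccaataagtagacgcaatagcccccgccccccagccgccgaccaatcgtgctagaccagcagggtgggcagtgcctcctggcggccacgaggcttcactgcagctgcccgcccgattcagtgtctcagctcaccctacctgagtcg

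Of the 9 genes 8 had a promoter in the RefSeq table, with 2 windows for Ugp2. The core was present 4 times for Ppp1r3c, 2 times for Pygl and 3 times for Gyg. It was also present 2 times for Pygb, 3 times for Ppp1r3d and 6 times in 1 Ugp2 window, and had no match in the other Ugp2 window or in the windows of Gys1 and Gbe1. Among all 32851 promoter windows of this length 43.8% hold at least 1 core. The matches were therefore shared by genes that were lower and genes that were not. The E-box CACGTG, which reads the same on both strands and holds a core on each, was in 7.15% of all windows. It occurred 1 time each for Ppp1r3c, starting at base -104 from the start site, for Gyg, at base 9 after it, and for Ppp1r3d, at base -226. The GC box GGGCGG, on either strand, was in 35.7% of all windows. It was found 4 times for Pygl, 1 time for Gyg and 3 times for Gys1, with 0 matches for Ppp1r3c and Pygb. Ppp1r3d had 5 matches, Gbe1 had 1, and the Ugp2 windows had 2 and 1. The windows of the 3 lower genes held 65.3% (Ppp1r3c), 67% (Pygl) and 62% (Gyg) G and C, and those of the other members from 54.3% (Gbe1) to 77% (Ppp1r3d), so 9 of 9 windows lay above the median of 52.7% over all promoters. A match describes letters in a window and is not evidence of binding.

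**Figure D1:**
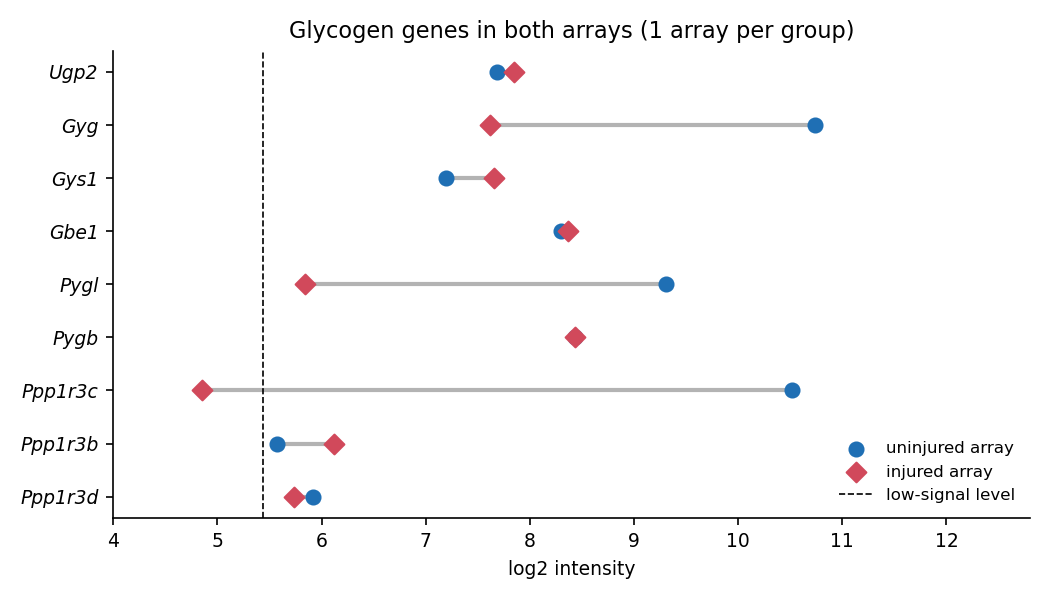
Log2 intensity of the 9 glycogen genes on the uninjured array (circles) and the injured array (diamonds), 1 array per group, ordered by step, with the low-signal level of 5.44 as a dashed line. Ppp1r3c, Pygl and Gyg are joined by long bars with the injured value on the left, and the Ppp1r3c diamond at 4.85 lies below the low-signal level.

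Ugp2, UDP-glucose pyrophosphorylase, had a log2 value of 7.68 in the uninjured and 7.85 in the injured array, a difference of 0.17. Both arrays gave nearly the same signal for this supply step. The listed genes with a phosphoglucomutase (Pgm) symbol were also less than 2-fold apart. Which of them act before Ugp2 was not examined. Pgm2 went from 8.89 to 9.73 (0.84) and Pgm1 from 7.52 to 7.83 (0.31). The platform gives these a pair of symbols the other way round, and they were named here by their gene identifiers.

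Gyg was 10.74 in the uninjured and 7.62 in the injured array. The injured array was the low one, with a log2 difference of -3.12 (8.70-fold), rank 46 from the lowest of 19512 measured genes. Glycogenin attaches the first glucose units to itself and stays at the centre of the particle. Gys1, the synthase that extends this primer, was 7.19 uninjured and 7.66 injured, a difference of 0.47 in the opposite direction and less than 1.5-fold. Gbe1, the branching enzyme, was 8.30 and 8.36, a difference of 0.07. The difference of Gyg less that of Gys1 was -3.59, and less that of Gbe1 -3.19. Gys2, the liver synthase, was under the low-signal filter, with 4.65 uninjured and 4.60 injured.

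Pygl was 9.31 uninjured and 5.84 injured. Its injured value was the low one, with a log2 difference of -3.46 (11.0-fold), rank 30 from the lowest. That injured value lies close to the low-signal level of 5.44, so the size of the fold is uncertain. Pygb had the same deposited value, 8.43, on both arrays, a difference of 0.00. Of the 19512 measured genes 156 (0.80%) have exactly equal values, Pygm among them at 5.78. The labels do not say what processing gave such pairs, so the 0.00 of Pygb and Pygm says no more than that the deposited values are equal. The difference of Pygl less that of Pygb was -3.46. The lysosomal glucosidase Gaa, which degrades glycogen by another route, went from 8.40 to 8.25 (-0.15).

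Phosphorylase kinase switches phosphorylase on and is built of alpha, beta and gamma subunits with calmodulin. The beta subunit Phkb was 9.08 uninjured and 7.78 injured, a log2 difference of -1.30 (2.46-fold). It was the 1 gene past 2-fold among the 18 measured of 22 other glycogen genes. The alpha subunits Phka1 (6.18 and 6.11) and Phka2 (7.63 and 7.62) and the gamma subunit Phkg2 (7.98 and 8.12) were within 0.15 of equal on the log2 scale.

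Ppp1r3c was 10.52 uninjured and 4.85 injured. The injured array was the low one, with a log2 difference of -5.67 (50.8-fold), rank 6 from the lowest of all measured genes as deposited. The injured value lies below the low-signal level of 5.44, so the size of the fold is uncertain, and measured down to that level it was 5.08 (33.9-fold). Ppp1r3c, also called protein targeting to glycogen, binds phosphatase 1, synthase and phosphorylase and is known for raising glycogen stores when it is abundant. Ppp1r3b, a subunit named for liver, went the other way, from 5.58 uninjured to 6.12 injured (0.55, 1.46-fold). Ppp1r3d was 5.92 and 5.74, a difference of -0.18. Both of these lay close to the low-signal level on both arrays, where small differences are hard to read.

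The family has 7 named subunits here, of which 6 were measured. Apart from Ppp1r3c, the 5 measured subunits lay between 5.58 and 6.52 in the uninjured array and between 5.74 and 6.50 in the injured array. Their differences ran from -0.18 to 0.55. All 5 lay near the low-signal level of 5.44, so a fall as large as that of Ppp1r3c could not have been seen. The muscle subunit Ppp1r3a was under the filter, at 3.23 and 3.16. The catalytic subunits that these proteins carry were bright on both arrays and less than 1.5-fold apart: Ppp1ca (11.31 and 11.73, a difference of 0.42), Ppp1cb (10.57 and 10.63) and Ppp1cc (10.01 and 10.31).

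**Figure D2:**
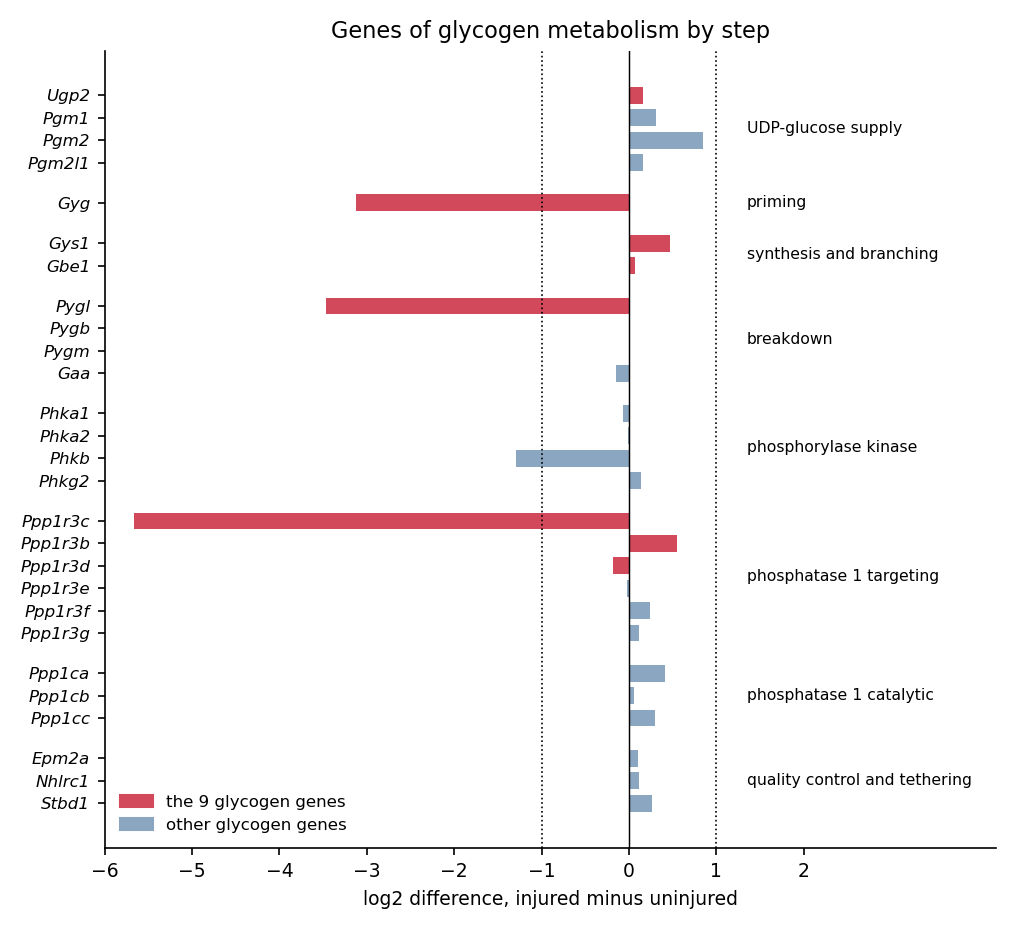
Log2 difference, injured minus uninjured, for the 27 measured genes of glycogen metabolism, grouped by step; red bars are the 9 glycogen genes, blue bars the other glycogen genes, and dotted lines mark 2-fold. Long bars to the left stand at Gyg, Pygl, Ppp1r3c and Phkb, and no bar passes 2-fold to the right.

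Of the 22 other glycogen genes 18 were measured; 1 was at least 2-fold lower, 0 were at least 2-fold higher, and the median difference was 0.12, beside 0.06 for all measured genes. The shares of all measured genes were 3.92% lower and 4.14% higher. The genes of Lafora disease, Epm2a (a glycogen phosphatase) and Nhlrc1 (its ubiquitin ligase partner), differed by 0.10 and 0.12. Stbd1, which tethers glycogen to membranes, differed by 0.27, with an uninjured value of 5.37 under the low-signal level.

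**Figure D3:**
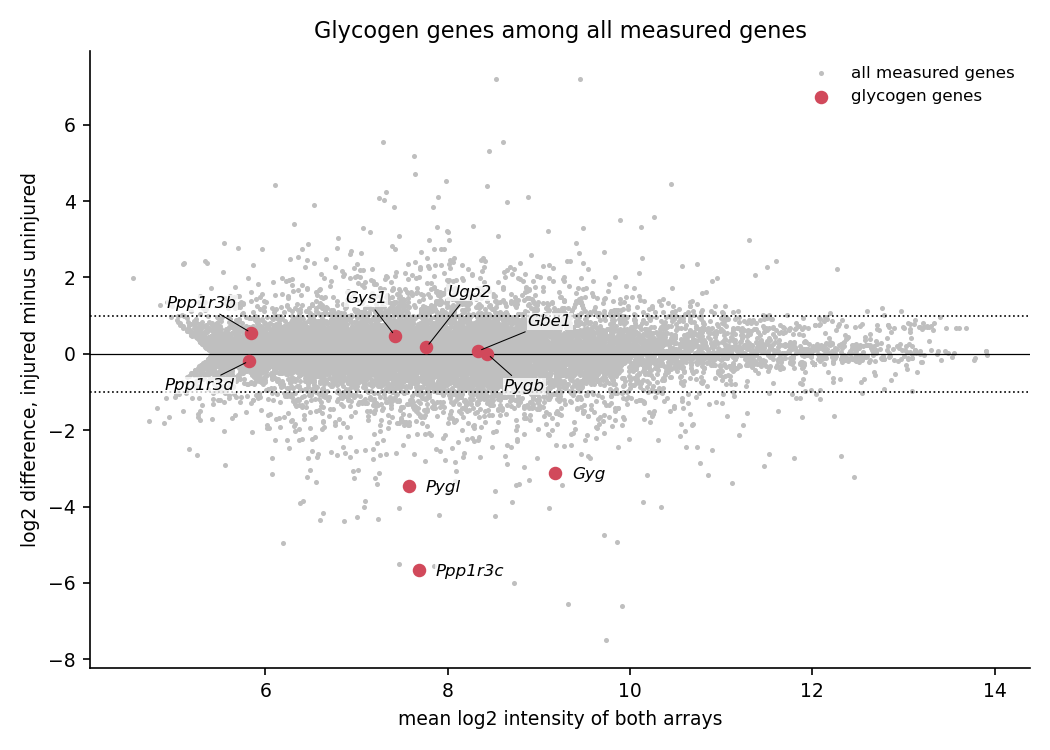
Log2 difference, injured minus uninjured, against the mean log2 intensity of both arrays for all 19512 measured genes (grey) and the 9 glycogen genes (red), with dotted lines at 2-fold. Ppp1r3c, Pygl and Gyg stand far below the grey band at -5.67, -3.46 and -3.12, and the other 6 lie inside the dotted lines.

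The genes next to Ppp1r3c in the order of differences over the 2 arrays were, on the lower side, Mgarp (-5.67), Cyp4a12a (-6.00) and Cyp4a12b (-6.54). Mgarp, a mitochondrial protein, was 11.31 uninjured and 5.63 injured. On the other side came Fam169a (-5.57), the cation channel Trpm3 (-5.51) and the pseudogene Gm12837 (-4.96), each with an injured value under the low-signal level. As the injured value of Ppp1r3c is also under that level, its place among these genes is not settled. The fatty acid hydroxylases Cyp4a12a and Cyp4a12b are near-identical copies, so the signal of each is uncertain.

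Among 19 kinases and receptors that act on glycogen enzymes, 14 were measured, with a median difference of 0.01. Prkaa2, a catalytic subunit of AMP-activated kinase, which phosphorylates glycogen synthase, was 9.32 uninjured and 8.13 injured, a difference of -1.19 (2.29-fold). The other catalytic subunit, Prkaa1, was 9.27 and 9.75, a difference of 0.49 in the opposite direction. The subunit Prkab1, whose protein can bind glycogen, differed by -0.57 and the kinase Akt1 by 0.65, both less than 2-fold. Gsk3a (0.02) and Gsk3b (-0.37), the kinases that hold synthase in its inactive form, were also less than 2-fold apart.

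In the list of glucose entry and glucose 6-phosphate genes 8 of 13 were measured and the median difference was 0.16, or 0.37 with the low-signal filter at the 75th percentile. The hexokinase Hk2 was 7.45 uninjured and 8.47 injured, higher by 1.02 (2.02-fold), and by 0.96, short of 2-fold, with a constant added on the linear scale. The glucose transporter Slc2a1 differed by 0.48 and the hexokinase Hk1 by 0.37. In the list of UDP-sugar genes 10 of 13 were measured, with a median of -0.05. Galm, the mutarotase of galactose and glucose, was 7.67 uninjured and 5.95 injured, a difference of -1.72 (3.29-fold). Slc35d1, a carrier of UDP-sugars, differed by 0.76 and Ugcg, which places glucose on ceramide, by 0.62.

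Of the 16 hypoxia-responsive genes 16 were measured, 3 at least 2-fold lower and 1 higher, beside 3.92% lower and 4.14% higher among all genes. Their median was 0.32, or 0.12 with the low-signal filter at the 75th percentile. The list was chosen with earlier results of these data known. Egln3, a prolyl hydroxylase that marks hypoxia-inducible factors for destruction, was 12.45 uninjured and 9.27 injured, a difference of -3.18 (9.07-fold). Egln1, another prolyl hydroxylase in the list, was 9.15 uninjured and 9.04 injured, a difference of -0.11. Epas1, which encodes the factor HIF-2 alpha, was 11.61 and 9.76, a difference of -1.85 (3.60-fold), and Ndrg1 was 9.73 and 8.28 (-1.45). Hif1a, for HIF-1 alpha, was 9.67 and 10.02, a difference of 0.35. Vegfa was higher (7.38 and 8.63, a difference of 1.26), while Ddit4 (0.93) and Kdm3a (-0.81) were less than 2-fold apart. The list therefore held genes in both directions, and the differences of its 3 lower genes stand beside those of Ppp1r3c, Pygl and Gyg without a test of any link.

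**Figure D4:**
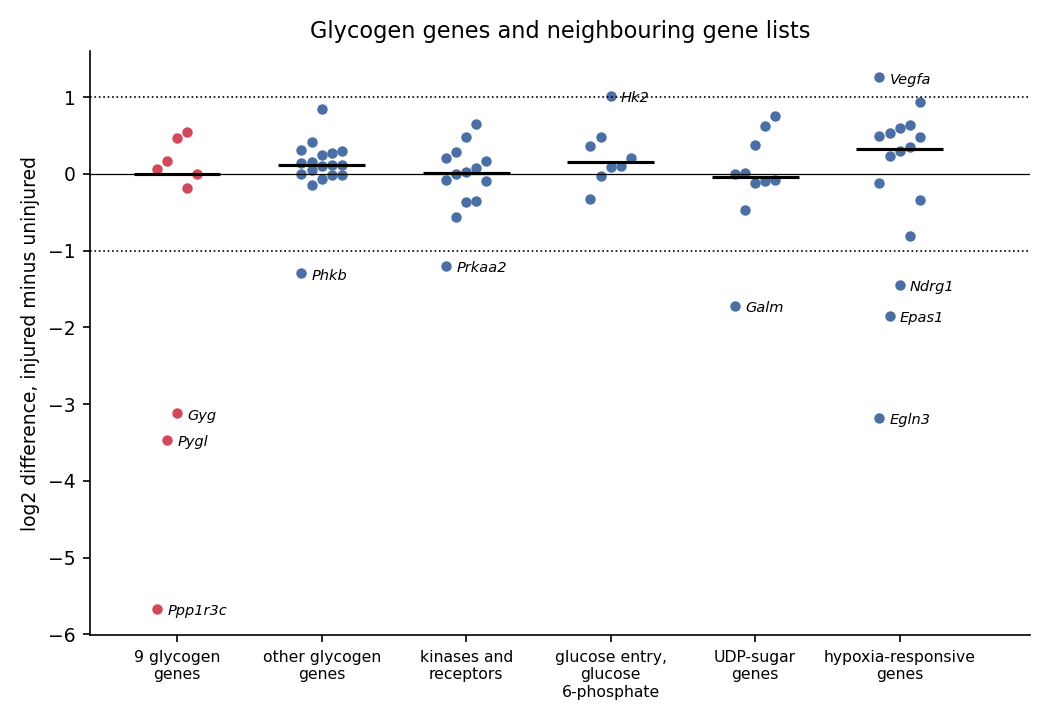
Log2 difference, injured minus uninjured, for each measured gene of the 9 glycogen genes and of 5 further lists, with the list median as a black line and dotted lines at 2-fold; genes past 2-fold are named. The medians lie between -0.05 and 0.32, and the genes below -3 are Ppp1r3c, Pygl, Gyg and Egln3.

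Markers of the labelled tissue were present on both arrays, with Krt5 at 13.85 uninjured and 13.69 injured and the corneal keratin Krt12 at 14.07 and 10.85. Of the 7 corneal epithelial markers 6 were measured; 3 of them, Krt12, Aldh3a1 (-2.68) and Pax6 (-1.32), were at least 2-fold lower and Krt14 higher (2.23), and their summed linear intensity was 50389 uninjured and 29598 injured. Krt5 (-0.16) and Clu (-0.40) were less than 2-fold apart, so the list held both directions. For this and the other marker lists, the shares of all measured genes were 3.92% lower and 4.14% higher. Krt12, Aldh3a1 and Pax6 were lower along with Ppp1r3c, Pygl and Gyg, and their part in the result was not tested. Of 9 leukocyte markers 7 were measured, with a median of 0.14. Itgam was at least 2-fold lower (-1.55), and the other 6 had differences from 0.04 (Mpo) to 0.87 (Lyz2). Ptprc (4.29 and 4.39) and Adgre1 (4.50 and 4.58) were under the filter on both arrays. The sum was 1964 uninjured and 1283 injured, and Itgam was the 1 measured leukocyte marker with a lower injured value. Of 8 keratocyte and stromal markers 6 were measured. Dcn was 6.09 uninjured and 4.77 injured (-1.31, or -0.99 with a constant added on the linear scale), with the injured value under the low-signal level and short of 2-fold when measured down to it. The stromal sum was 617.0 uninjured and 592.9 injured, and the defining genes Kera (3.55 and 3.52) and Lum (4.31 and 3.99) were under the filter. Of 5 conjunctival and goblet markers 5 were measured, with Krt7 (1.34) and Krt19 (1.11) higher, Muc5ac (-1.26) lower, and a sum of 10205 uninjured and 12395 injured. Krt4 (11.85 uninjured and 11.98 injured) and Krt13 (12.06 and 11.77) were the brightest of this list on both arrays and less than 2-fold apart. Of 5 muscle markers 4, of 4 melanocyte markers 3 and of 3 endothelial markers 1 were measured, and 0 of these 8 were past 2-fold; the sums, uninjured and injured, were 447.8 and 482.4 for muscle, 176.1 and 170.9 for melanocytes and 44.5 and 46.8 for endothelium. No value in the table is 0, so a marker under the filter has a dim signal, not a zero.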

How the data were processed

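The authors' deposited table holds log2 intensities of 65952 rows on 2 arrays, with medians of 5.44 (injured) and 5.43 (uninjured). Agilent Feature Extraction 9.1 is the tool in the submitters' processing notes, whereas the row identifiers are of transcript clusters and the label is biotin, which do not go with that tool; how background was corrected, probes summarised and arrays normalized, and on which build, is not stated in the labels. Per the labels, 2 µg of RNA was labelled with biotin. The values were used as deposited, with Python 3.11.15 and pandas 2.3.3. Row names came from the platform's annotation, updated through RefSeq gene identifiers and synonyms (GRCm38.p6): 31254 rows carry 1 gene, 1492 several and 33206 are unnamed here. For 9 of 9 genes the chromosome in the row number was the RefSeq one. Of several rows of a gene that passed the filter, the brightest on average was used. Differences are injured minus uninjured, and 2-fold is a difference of 1. With 1 array per group no test was run; the number of arrays limits the precision, and no detection or saturation call was used. The SD of the difference between rows of a gene was 0.24 over 542 rows of 256 genes. The members and lists were chosen with earlier results of these data known. Named were the 9 genes, each list gene past 2-fold with the 2 next by size, and the 3 neighbours on each side of Ppp1r3c; others named to complete a step, a pair or a count were chosen after their values were seen. The step that gives each gene 1 value pair was checked on simulated data. The changed genes there were bright, so the check does not cover signals near the low-signal level. The 11 alternatives changed normalization, filter, choice of row, a constant of 13.9 on the linear scale, or the fold threshold.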

Additional observations from a re-analysis of the deposited data

How the results depend on the processing

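Under the 11 alternatives the members counted as lower stayed 3 and as higher 0. Only the 4 scalings and the added constant could change the differences of the members. Each member has 1 row, so the choice of row could not act, and the filter left the differences as deposited. The 3 lower genes were past 8-fold, so the 1.5-fold and 4-fold thresholds could not change their count. Ppp1r3c ranged from -5.71 to -5.11, Pygl from -3.48 to -3.18 and Gyg from -3.16 to -3.03 on the log2 scale. With the constant added on the linear scale Ppp1r3c was 34.6-fold and Pygl 9.08-fold lower. Pygb ranged from -0.01 to 0.00, so its sign and that of the members' median follow the scaling; the signs of the other 5 members less than 2-fold apart did not change under the settings run. Among the 18 measured other glycogen genes 1 (Pgm2) was higher at the 1.5-fold threshold and 0 were lower at the 4-fold threshold. Of all 19512 measured genes, 1710 were lower and 2173 higher at 1.5-fold. At 4-fold, 152 were lower and 138 higher. Nothing is read from setting the counts of the members or of the other glycogen genes against these. With the low-signal filter at the 75th percentile (6.93) Ppp1r3b and Ppp1r3d dropped out, leaving 7 members. No paired analysis was possible because each group has 1 array. Leaving out a replicate was not possible for the same reason. Signals near the low-signal level, as for Ppp1r3b, Ppp1r3d, injured Pygl and injured Ppp1r3c, limit how well a difference can be sized.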

Other observations

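Protein phosphatase 1 has many regulatory subunits besides those that bind glycogen, and the genes whose symbol begins with Ppp1r were gathered after the values were seen. Of the 38 measured, 5 of them pseudogenes of Ppp1r2, 2 were at least 2-fold lower and 0 higher, with a median difference of 0.10, beside 3.92% lower and 4.14% higher among all genes. The 2 were Ppp1r3c and Ppp1r13b, which encodes a p53-binding protein and went from 8.57 uninjured to 7.49 injured (-1.08, 2.11-fold). Ppp1r12a, the subunit that directs the phosphatase to myosin, was next at 10.24 and 9.33 (-0.92), short of 2-fold. On the higher side Ppp1r18 (0.67) and Ppp1r8 (0.59) had the largest differences of the 38.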
